A study of Mus musculus with 4 samples.

Results

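Layer 5 marker spots were the capture spots with the highest joint level of 4 genes, Fezf2, Etv1, Deptor and Parm1, in spatial transcriptomic sections of the mouse brain. Spots with 500 or more UMIs (unique molecular identifiers, each a counted RNA molecule) were scored by the summed UMIs of the 4 genes per 10000 UMIs. In each section the spots with 2 or more UMIs of these genes and 1 or more of Slc17a7, the vesicular glutamate transporter of cortical excitatory neurons, were ranked by score, and as many were taken as made up 5% of its spots. This gave 446 of 9676 spots: 130 in trained 1, 141 in trained 2, 54 in untrained 1 and 121 in untrained 2. The levels of these 5 genes in the chosen spots follow from the choice and are given without a test.

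The sections came from male ArcCreERT2::eYFPflx mice on a C57BL/6 background, 3–4 months old, in which the Arc promoter drives an inducible Cre that switches on eYFP. Trained mice learned to avoid a shock zone in a rotating arena, and untrained mice were placed in the same arena with the shock disabled. All mice received 4-hydroxytamoxifen under isoflurane before the retention test and were sacrificed 3 days after it. A coronal section with the dorsal hippocampus was profiled with 10x Genomics Visium in each of 2 trained and 2 untrained mice, so the section is the replicate (n = 2 against 2). The samples are labelled as hippocampus, but the sections also hold cortex, thalamus, striatum and hypothalamus. A Visium spot is a small area that can hold several cells of different types.

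Layer 5 is the main output layer of the neocortex. Its extratelencephalic neurons have thick-tufted apical dendrites and send axons to the brainstem, spinal cord and thalamus, its intratelencephalic neurons project to the other hemisphere and the striatum, and its near-projecting neurons connect locally. Fezf2 is a transcription factor that specifies subcerebral projection neurons, Etv1 is an ETS-family transcription factor used as a layer 5 marker, Deptor is an inhibitor of mTOR, and Parm1 is a mucin-like membrane protein.

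Section totals ranged from 3560294 UMIs in untrained 1 to 10330015 in trained 2. Values for single sections are listed throughout in the order trained 1, trained 2, untrained 1 and untrained 2. The layer 5 marker spots held 709795, 718621, 237672 and 539036 UMIs. Since the choice asks for marker and Slc17a7 UMIs, it favors spots with more UMIs, and the following depths are given as a description. The median was 4941, 4218, 3985.5 and 3882 UMIs per spot, against 2056, 2605, 1316 and 1955 in the other spots. The layer 5 marker spots had a median of 2533, 2426, 2212.5 and 2045 genes against 1284, 1636.5, 878 and 1224. In a bulk-like sum of spots, fewer cells of a type and less RNA per cell cannot be told apart. Untrained 1 stood apart from the other sections. It was the shallowest, and it supplied only 54 eligible spots where 5% would have been 91. The transcript at the reporter locus, Gt(ROSA)26Sor, was detected in 63 of 130, 54 of 141, 3 of 54 and 70 of 121 layer 5 marker spots. These shares are 48.5%, 38.3%, 5.56% and 57.9%, with exact 95% binomial intervals of 39.6–57.4%, 30.2–46.9%, 1.16–15.4% and 48.5–66.8% that cover counting error only. In the other, shallower spots the shares were 24.4%, 31.2%, 2.38% and 37.2%, so untrained 1 was low in both classes.

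The choice rested on few molecules per spot. Of the 446 spots, 242 (54.3%) carried 2 UMIs of the 4 genes, 108 carried 3 and 42 carried 4, and the highest number was 12. The UMIs came from a single gene in 137 spots (30.7%), from 2 genes in 240 (53.8%), from 3 genes in 64 and from all 4 genes in 5. In 90 spots (20.2%) every one of them was Etv1. The median score was 5.35, 6.64, 5.44 and 6.53 per 10000 UMIs. The lowest score inside was 1.64, 4.06, 1.84 and 3.29, and the highest eligible score outside was 1.38, 4.03 and 3.26 in trained 1, trained 2 and untrained 2. In untrained 1 every eligible spot was a member.

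Fezf2 (ENSMUSG00000021743, GRCm38 chr14:12342094-12348189, minus strand) was at 76.1, 104, 46.3 and 106 CPM (UMIs of the gene per 1000000 UMIs, summed over spots) in the layer 5 marker spots and at 7.42, 11.4, 6.65 and 15.3 CPM in the other spots. Etv1 (ENSMUSG00000004151, chr12:38779380-38870484, plus strand) was at 255, 337, 248 and 343 against 46.6, 53.7, 54.2 and 54.2 CPM. Fezf2 was lowest in untrained 1 in both classes, whereas Etv1 was at a similar level in the other spots of all sections. Parm1 (ENSMUSG00000034981, chr5:91517615-91626894, plus strand) was at 147, 182, 202 and 130 against 30.0, 42.0, 37.1 and 29.2 CPM. Deptor (ENSMUSG00000022419, chr15:55112317-55259271, plus strand) was at 35.2, 58.4, 54.7 and 44.5 against 13.1, 12.8, 14.3 and 11.9 CPM. Slc17a7 was at 695, 622, 1039 and 783 against 478, 376, 614 and 598 CPM.

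The label was checked against the tissue around each spot. A spot was called cortical where, over its neighbors within 2 spot pitches and with the spot itself left out, the cortex list (with Mef2c, Vxn, Tbr1, Lamp5 and 1110008P14Rik among its genes) stood highest against its section mean among the regional marker lists. By this measure 240 of the 446 layer 5 marker spots (53.8%) lay in cortex, with 66, 91, 22 and 61 spots per section. That is 50.8%, 64.5%, 40.7% and 50.4% of them, against 27.3%, 23.2%, 23.4% and 29.3% of the other spots. Only the chosen spots had to carry Slc17a7. Among the other spots Slc17a7 was at 766, 782, 833 and 846 CPM in cortex against 372, 260, 533 and 488 CPM elsewhere. The choice itself thus favors cortex, and the share was not set against other spots with Slc17a7. The share was higher than among the other spots in 4 of 4 sections, but the remaining spots lay elsewhere, and the name layer 5 cortex applies to only part of the class. Of these, 51 lay in CA1-led, 38 in thalamus-led, 29 in dentate-led, 22 in hypothalamus-led, 20 in striatum-led and 17 in medial habenula-led surroundings.

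**Figure D1:**
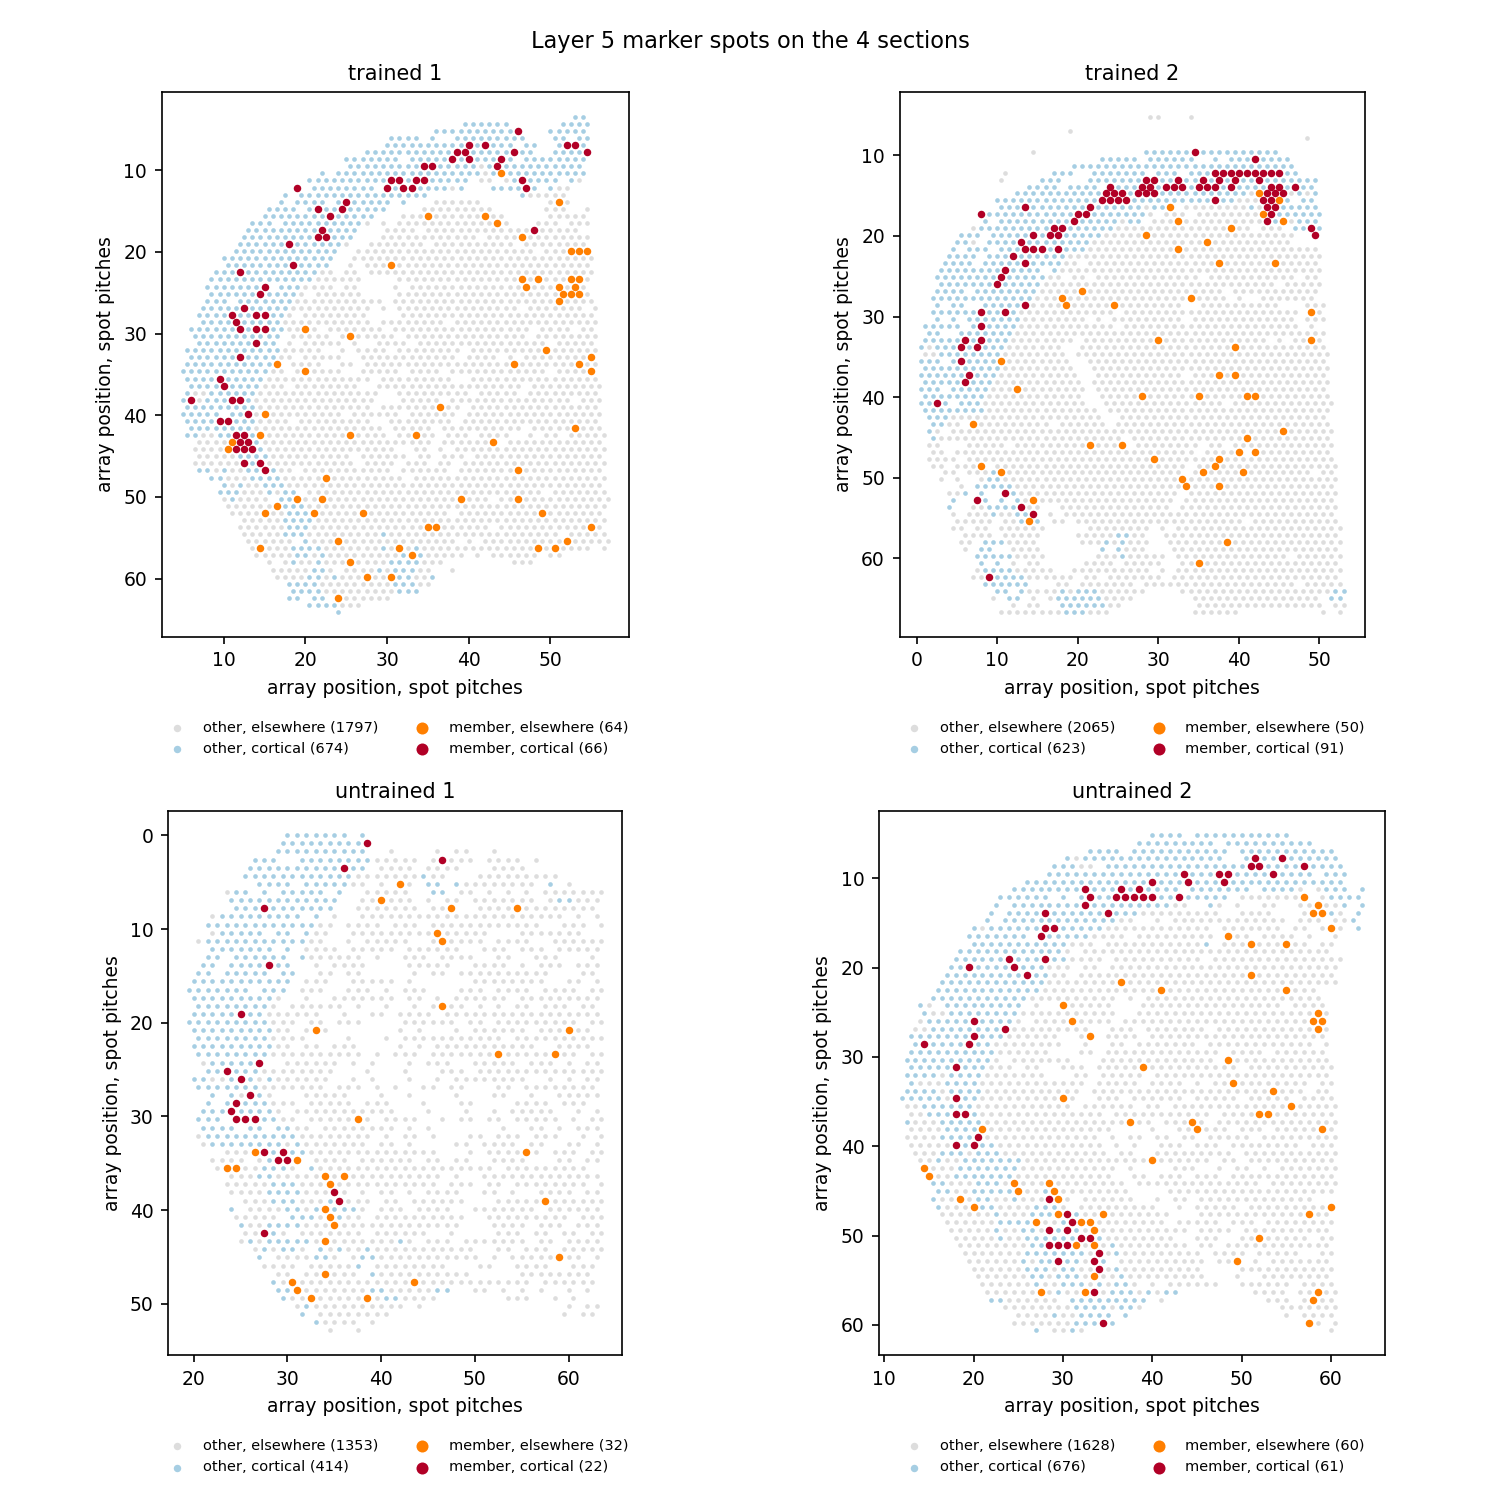
Each point is a capture spot with 500 or more UMIs at its array position in spot pitches, in one panel per section. Layer 5 marker spots in cortical neighborhoods (dark red, 66, 91, 22 and 61) lie within the cortex (pale blue), and the others (orange, 64, 50, 32 and 60) are scattered over the rest of the section (gray).

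The 4 genes did not contribute alike in these surroundings. In the 240 cortical spots Fezf2 made up 19.5% and Etv1 48.2% of the marker UMIs. In the 17 spots of the medial habenula, a small epithalamic nucleus of cholinergic and tachykinin neurons, Etv1 made up 83.6% and Fezf2 2.99%. The 38 thalamic spots held 0 Fezf2 UMIs among 94 marker UMIs and 162605 UMIs in all, which allows up to 18.45 CPM at 3 counts, with 60.6% from Etv1 and 28.7% from Deptor. In the 22 hypothalamic spots Parm1 made up 50%. Fezf2 was at 114, 132, 31.6 and 140 CPM in cortical layer 5 marker spots and at 38.9, 46.9, 56.1 and 67.2 CPM in those elsewhere. It was higher in cortex in every section but untrained 1, which held only 11 Fezf2 UMIs over all its layer 5 marker spots. Etv1 was at 249, 337, 295 and 297 against 261, 336, 217 and 395 CPM, close in the trained sections, higher in cortex in untrained 1 and lower in cortex in untrained 2.

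Within the cortex the spots tended to lie next to each other. Of the kept spots adjacent to a cortical layer 5 marker spot, 21.5%, 33.7%, 15.6% and 20% were members themselves, against 8.45%, 10.5%, 4.51% and 7.76% around the other cortical spots. Cortical members had a median of 4784, 4247, 4004.5 and 4210 UMIs, against 2063.5, 2141, 1610 and 2157 in other cortical spots. The part of this greater sequencing depth in the adjacency was not tested. Members made up 8.92%, 12.7%, 5.05% and 8.28% of all cortical spots and 3.44%, 2.36%, 2.31% and 3.55% of spots elsewhere. The distance to the outer tissue edge, taken over cortical spots only, had a median of 5.57, 5.20, 5.10 and 6.25 spot pitches, against 4.36, 4.36, 4.58 and 5 over all cortical spots. In untrained 1, with 22 spots, the quartiles of 3.79 and 6.98 pitches were close to the 2.65 and 6.93 of all its cortical spots. It was 3, 3.46, 3.80 and 2.65 in upper-layer marker spots, chosen in the same way by Cux2, Lamp5, Otof and Rasgrf2, and 7.94, 8.89, 6.56 and 7.81 in layer 6 marker spots, chosen by Rprm, Syt6, Tle4 and Foxp2. The layer 5 median lay between the other two in 4 of 4 sections, as a description of these spots.

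**Figure D2:**
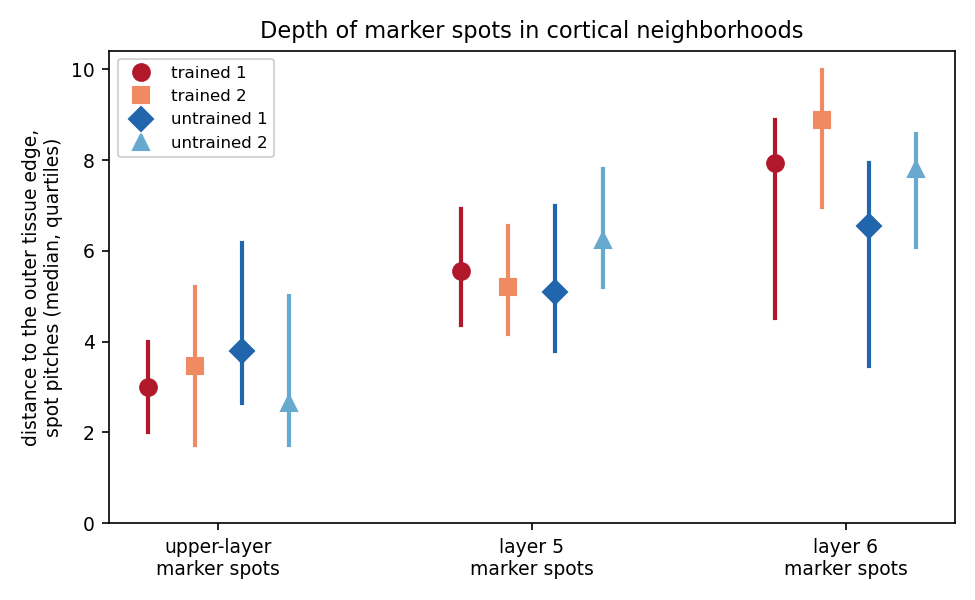
Distance from each cortical marker spot to the outer tissue edge, in spot pitches, with the median as a point and the quartiles as a line for each section. The layer 5 medians (5.10 to 6.25 pitches) lie below the cortical surface between those of upper-layer (2.65 to 3.80) and layer 6 marker spots (6.56 to 8.89).

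Each marker was then measured in spots chosen without it, by the other 3 genes and the same minimums. Fezf2 was at 36.6, 58.7, 18.4 and 45.1 CPM in such spots against 12.2, 14.6, 8.81 and 20.4 CPM in the rest, a log2 difference of 1.55 ± 0.20 (SE; edgeR adjusted p = 1.691e-08). It was higher in 4 of 4 sections, and in that comparison 0.851% of the genes tested were called higher. Etv1 was at 133, 142, 111 and 114 against 63.8, 66.8, 66.3 and 76.0 CPM, a log2 difference of 0.91 ± 0.12 (edgeR adjusted p = 2.922e-11, with 1.62% of genes called higher). The chosen spots all lay above the rest for Etv1 as well.

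Parm1 was at 84.0, 95.8, 51.3 and 46.9 against 38.6, 47.8, 48.5 and 36.5 CPM, a log2 difference of 0.79 ± 0.15 (edgeR adjusted p = 3.347e-05, 1.38% of genes called higher). The gain was large in the trained sections and small in the untrained ones, and without trained 2 the log2 difference was 0.63 (edgeR adjusted p = 0.0735). Deptor was at 20.4, 24.6, 14.8 and 6.59 against 14.8, 15.2, 17.2 and 15.4 CPM, a log2 difference of 0.16 ± 0.27 (edgeR adjusted p = 0.893, 1.45% of genes called higher). It was higher in the trained and lower in the untrained sections, on 14, 20, 3 and 4 UMIs, so it was not shown to mark the same spots as the other 3 genes.

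The minimum of 1 Slc17a7 UMI does not apply to the other spots, so the markers were also set against other spots with 1 or more Slc17a7 UMIs. The log2 differences were then 1.18 for Fezf2 (edgeR adjusted p = 5.734e-05), 0.93 for Etv1 (adjusted p = 3.543e-09), 0.84 for Parm1 (adjusted p = 8.526e-05) and 0.25 for Deptor (adjusted p = 0.881). With both classes in cortical neighborhoods they were 1.004 (adjusted p = 0.0108), 1.04 (adjusted p = 1.518e-07), 0.85 (adjusted p = 0.00513) and 0.18 (adjusted p = 0.953). In untrained 1 the cortical spots chosen without Fezf2 held 1 Fezf2 UMI, at 11.6 CPM in both classes, and those chosen without Parm1 held 1 Parm1 UMI, at 18.5 against 45.7 CPM.

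**Figure D3:**
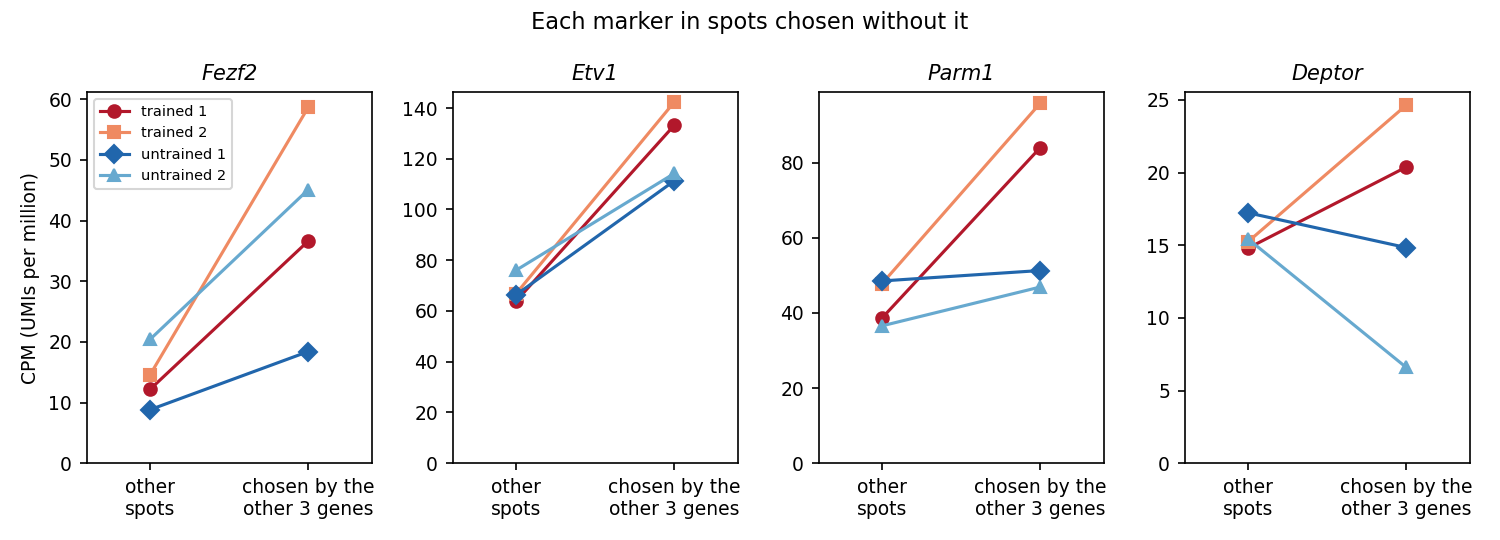
CPM of each marker in other spots and in spots chosen by the other 3 genes, with a line for each section. All 4 lines rise for Fezf2, Etv1 and Parm1, whereas for Deptor they rise in the trained sections and fall in the untrained ones (24.6 against 15.2 CPM in trained 2, 6.59 against 15.4 CPM in untrained 2).

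To describe the layer 5 marker spots beyond the genes that chose them, their summed counts were compared with those of all other spots within each section. The genes that rose included 5 of the 6 genes of the cortex list, and those that fell included genes of the hypothalamus, choroid plexus, striatum, thalamus and oligodendrocyte lists. Among 12025 genes tested with edgeR, 162 were higher (1.35%) and 183 lower (1.52%), together 345 (2.87%).

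Lamp5, a lysosome-associated membrane protein of superficial and layer 5 neurons, was at 151, 253, 96.8 and 165 against 116, 87.3, 77.6 and 106 CPM (log2 difference 0.82 ± 0.11, edgeR adjusted p = 6.889e-09). Pou3f1, a POU-domain transcription factor of extratelencephalic neurons, was at 52.1, 51.5, 37.9 and 37.1 against 28.9, 22.8, 23.8 and 27.5 CPM (log2 difference 0.81 ± 0.18, edgeR adjusted p = 0.0011). Pde1a, a calmodulin-dependent phosphodiesterase, was at 155, 160, 164 and 172 against 91.8, 83.5, 115 and 103 CPM (log2 difference 0.74 ± 0.10, edgeR adjusted p = 7.644e-09). For Lamp5 the range of the other spots overlapped that of the layer 5 marker spots, whereas for Pou3f1 and Pde1a it did not.

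The other genes with the largest rises were Nwd2, at 74.7, 23.7, 54.7 and 76.1 against 32.7, 16.3, 28.8 and 24.8 CPM (log2 difference 1.12), and, with log2 differences between 0.65 and 0.75, Cadps2, Mpped1, Vxn, Plcxd2, Hivep3, Slc5a5, Ccn3 and Plcl2. Cadps2 acts in the priming of dense-core vesicles and Slc5a5 is the sodium-iodide symporter. Nwd2 depended on which members were taken: in the layer 5 marker spots that the cortex and layer lists led by themselves its log2 difference was −0.13. Against other spots with 1 or more Slc17a7 UMIs, 32 genes were higher and 65 lower, and Lamp5, Pou3f1, Pde1a and Nwd2 were still called.

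Among the genes that fell, Ttr, the thyroid hormone carrier made by the choroid plexus, was at 2360, 140, 1102 and 2198 against 5818, 537, 2553 and 5516 CPM (log2 difference −1.42). Oxt, the precursor of oxytocin, was at 66.2, 22.3, 0 and 0 against 278, 56.5, 3.80 and 0.839 CPM (log2 difference −1.93). Hcrt, the orexin precursor, had a log2 difference of −1.18, Agt, the angiotensinogen made by astrocytes, of −0.90, Prkcd, a protein kinase C of thalamic neurons, of −0.87, and Penk, the enkephalin precursor of striatal neurons, of −0.85. Amotl1 and Clic4 fell by 1.0 and 0.99 on the log2 scale. With both classes in cortical neighborhoods the sign turned for Oxt (0.30), Hcrt (0.062) and Prkcd (0.21). Hcrt was not called against other spots with 1 or more Slc17a7 UMIs (−0.43).

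The marker lists were read against the 1.35% of all genes called higher and the 1.52% called lower. All chosen spots carried Slc17a7, but only 49.2%, 46.3%, 48.9% and 55.4% of the other spots did. Differences in these lists can follow in part from that choice, and the lists were not counted against other spots with Slc17a7. Of the cortex list 5 of 6 genes were higher and none lower, with a median log2 difference of 0.52 against 0.00 over all genes tested. Lower were 8 of 8 oligodendrocyte genes (median −0.48), 6 of 7 striatal, 5 of 5 thalamic, 5 of 7 hypothalamic, 4 of 5 choroid plexus and 4 of 4 blood genes. The synaptic vesicle list had 11 of 26 genes higher and none lower (median 0.20), among them Snap25, a SNARE of vesicle fusion, and Stx1a, its partner syntaxin. Of the mitochondrially encoded genes 12 of 13 were lower (median −0.25), and of the cytoplasmic ribosome genes 12 of 76. Against other cortical spots, with both classes in cortical neighborhoods, 1 of 26 synaptic vesicle genes was higher (median 0.04), and none of the mitochondrially encoded (median −0.12) or ribosome genes (median −0.07) was called, where 0.128% of all genes were higher and 0.117% lower.

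Of the medial habenula list 2 of 3 genes were higher, against 1.35% of all genes. Gng8, a G-protein gamma subunit of that nucleus, was at 124, 4.17, 0 and 46.4 CPM against 16.4, 10.5, 10.1 and 10.2 CPM in the other spots, and the 0 of 237672 UMIs in untrained 1 allows up to 12.6 CPM. The level was high in trained 1 and untrained 2 only. There 86 of 88 and 23 of 25 Gng8 UMIs lay in spots with habenula-led surroundings, of which trained 1 had 11 and untrained 2 had 5. Chrnb4, a nicotinic receptor subunit of the habenula, was at 23.9, 2.78, 0 and 14.8 against 2.84, 1.47, 1.27 and 2.68 CPM.

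To set layer 5 marker spots apart from cortex in general, the comparison was repeated between the 240 cortical members and the other cortical spots. Here 12 of 9370 genes were higher (0.128%) and 11 lower (0.117%). Only 11 of the 345 genes called over all spots were called again, 9 of them in the same direction. Pcp4, a small calmodulin regulator abundant in deep-layer neurons, was at 1272, 1982, 978 and 1450 CPM against 895, 1695, 768 and 909 CPM (log2 difference 0.42 ± 0.07, edgeR adjusted p = 9.282e-05). The layer 5 marker spots were higher in every section, although trained 2 was high in both classes and the ranges overlapped.

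Nefh, the heavy neurofilament subunit of large projection axons, was at 109, 205, 52.6 and 73.4 against 65.2, 81.5, 53.8 and 53.7 CPM (log2 difference 0.92 ± 0.16, edgeR adjusted p = 6.916e-05). The rise was seen in trained 1, trained 2 and untrained 2 and not in untrained 1, whose layer 5 marker spots held 5 Nefh UMIs. Pvalb, the calcium buffer of fast-spiking interneurons, was at 357, 608, 73.7 and 269 against 290, 344, 181 and 200 CPM (log2 difference 0.48, edgeR adjusted p = 0.0114), again higher in all sections but untrained 1.

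Also higher, and in 4 of 4 sections, were Sulf2, a heparan sulfate endosulfatase (log2 difference 0.68), Hrh3, the histamine H3 receptor (0.58), Cds1, a phospholipid synthesis enzyme (0.57), Sorl1, a sorting receptor (0.49), and Tmsb10, an actin-binding thymosin (0.33). Hrh3 was at 146, 145, 179 and 133 against 76.3, 107, 104 and 101 CPM, with no overlap between the classes.

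Calb1 and Rasgrf2 were among the lower genes. Calb1, the calcium buffer calbindin, was at 91.5, 33.1, 105 and 115 against 153, 106, 198 and 151 CPM (log2 difference −0.88 ± 0.16, edgeR adjusted p = 0.000244). Rasgrf2, a Ras exchange factor of upper-layer neurons, was at 57.2, 49.6, 126 and 90.9 against 118, 96.1, 147 and 121 CPM (log2 difference −0.73, edgeR adjusted p = 0.0138). Both were lower in 4 of 4 sections. Bc1, a dendritic noncoding RNA, fell by 0.57 on the log2 scale, Ppp1r1a, an inhibitor of protein phosphatase 1, by 0.51, Camk2n1, an inhibitor of CaMKII, by 0.41, and Nrgn, the postsynaptic calmodulin-binding protein neurogranin, by 0.31. Ptgds and Arpp21 were also lower.

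The layer 5 subtype lists were thinly covered, and within cortex no gene of them passed the test. All 6 tested genes of the extratelencephalic list had positive log2 differences, with a median of 0.74 against other cortical spots: Bcl6 1.05, Pou3f1 0.80, Vat1l 0.76, Ldb2 0.71, Bcl11b 0.49 and Crym 0.37, with edgeR adjusted p values from 0.102 to 0.580. Bcl11b encodes the transcription factor CTIP2 that acts downstream of Fezf2, and Crym encodes a thyroid hormone-binding crystallin of corticospinal neurons. Both tested intratelencephalic genes (Hsd11b1 and Whrn) and all 3 tested near-projecting genes (Tshz2, Lypd1 and Rapgef3, median 0.45) were positive too. The summed intratelencephalic list was at 0.925, 1.55, 0.693 and 1.02 times its level in other cortical spots, clearly above 1 in trained 2 alone. In contrast, 5 of 6 upper-layer genes (median −0.62), both layer 4 genes and 6 of 6 layer 6 genes (median −0.39) were negative, and of these only Rasgrf2 passed the test. Single sections departed from this. The summed upper-layer list was at 1.09 times its level in other cortical spots in trained 2. In untrained 1 the layer 4 and layer 6 sums were at 1.15 and 1.005 times theirs. In the remaining sections each of these sums was below 1. All 14 axonal cytoskeleton genes were positive (median 0.19) and 1, Nefh, passed. Oligodendrocyte genes had a median of 0.02 with 5 of 8 positive, and none was called.

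Next, the layer 5 marker spots were compared with upper-layer marker spots, of which there were 130, 141, 91 and 121, leaving out spots that met both choices (7, 31, 3 and 14). Over all surroundings 45 of 8329 genes were higher (0.54%) and 77 lower (0.924%), together 122 (1.46%). Within cortical neighborhoods 40 of 6428 genes were higher (0.622%) and 34 lower (0.529%), and 44 genes were called in both. Pcp4 was the most significant, at 1326, 2021, 972 and 1406 against 505, 1153, 572 and 443 CPM in cortex (log2 difference 1.14 ± 0.10, edgeR adjusted p = 1.125e-13). Every section had at least 1.70-fold more Pcp4 in its layer 5 marker spots.

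Crym was at 67.4, 104, 133 and 70.9 against 22.7, 37.4, 77.3 and 44.7 CPM (log2 difference 1.15, edgeR adjusted p = 0.0103), the one extratelencephalic gene of 5 tested that was called. Gap43, a growth-associated axonal protein, was at 273, 248, 320 and 377 against 198, 144, 209 and 175 CPM (log2 difference 0.74, edgeR adjusted p = 0.000737), with no overlap. With Map1b, a microtubule-binding protein (0.47), Uchl1, a neuronal deubiquitinase (0.37), and Nefh (0.83) it made 4 of 14 axonal cytoskeleton genes that were higher, and none was lower (median of the list 0.28). Sst, the neuropeptide of an interneuron class enriched in deep layers, was at 800, 351, 906 and 634 against 525, 250, 572 and 394 CPM (log2 difference 0.60).

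Slc5a5 (1.41), Slc6a7, the brain proline transporter (1.36), Myl4 (1.24), Sulf2 (1.09), Atp1b3, a sodium pump subunit (1.002), Fxyd6 (0.94), Nrip3 (0.94), Rab3c, a vesicle GTPase (0.93), and Sez6 (0.85) completed the largest rises. Lower in layer 5 marker spots were S100a6 (−1.52), Calb1 (−1.45), Cpne5 (−1.42), Dact2 (−1.26), Kitl (−1.15), Vip, the peptide of a superficial interneuron class (−1.04), Cux1, a transcription factor of upper layers that took no part in the choice (−1.01), and Pitpnm2 (−0.94). Cux1 was at 55.1, 51.8, 33.1 and 35.5 against 107, 101, 92.8 and 73.1 CPM, with no overlap. Myelin genes were higher in 3 of 8 cases (with Mbp and Mobp among them, median of the list 0.49). The part of white matter in the other differences was not tested.

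Against layer 6 marker spots (130, 141, 71 and 121, leaving out the 14, 9, 6 and 11 that met both choices) Lamp5, Nefh and Pvalb were higher and Gnb4, Hs3st4 and Tbr1 lower. Over all surroundings 31 of 8782 genes were higher (0.353%) and 40 lower (0.455%), and within cortex 42 of 5889 were higher (0.713%) and 39 lower (0.662%). Lamp5 was at 239, 354, 144 and 284 against 118, 87.9, 94.5 and 116 CPM in cortex (log2 difference 1.495 ± 0.18, edgeR adjusted p = 7.333e-09), with no overlap. Nefh was at 114, 210, 52.3 and 75.1 against 32.3, 68.1, 28.3 and 42.8 CPM (log2 difference 1.48 ± 0.24, edgeR adjusted p = 1.828e-05), higher in every section. Pou3f1 was at 65.8, 62.6, 91.5 and 27.6 against 37.7, 13.2, 18.9 and 25.7 CPM (log2 difference 1.38, edgeR adjusted p = 0.0385), a small gap in untrained 2.

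Pvalb was at 368, 626, 78.5 and 245 against 134, 200, 132 and 163 CPM (log2 difference 1.26, edgeR adjusted p = 4.035e-08), higher in all sections but untrained 1. Syt2, a fast synaptotagmin, had a log2 difference of 1.25, Scn4b, a sodium channel beta subunit, of 1.25, and Vamp1, a synaptobrevin, of 0.99. Vamp1 was below the layer 6 marker spots in untrained 1. Pdyn, the dynorphin precursor (1.44), Nrip3 (1.08), Osbpl6 (1.21), Plcxd2 (1.18), Tafa1 (1.35) and Tbc1d30 (1.28) were higher as well. So were 3 of 4 blood genes (median 0.89), with Hba-a2 at 105, 64.8, 196 and 190 against 64.6, 15.4, 104 and 47.1 CPM.

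Lower than in layer 6 marker spots were Gnb4, a G-protein beta subunit (−1.95), Ighm (−1.72), Rgs12 (−1.62), Hs3st4, a heparan sulfotransferase of layer 6 neurons that took no part in the choice (−1.61), Rasl10a (−1.58), Hace1 (−1.55), Igsf21 (−1.42) and Trbc2 (−1.40). Hs3st4 was at 32.9, 36.7, 52.3 and 15.8 against 91.5, 136, 94.5 and 51.4 CPM, lower in 4 of 4 sections. Tbr1, a transcription factor of corticothalamic neurons, was at 132, 162, 78.5 and 98.8 against 237, 318, 170 and 158 CPM (log2 difference −0.87, edgeR adjusted p = 0.000444).

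**Figure D4:**
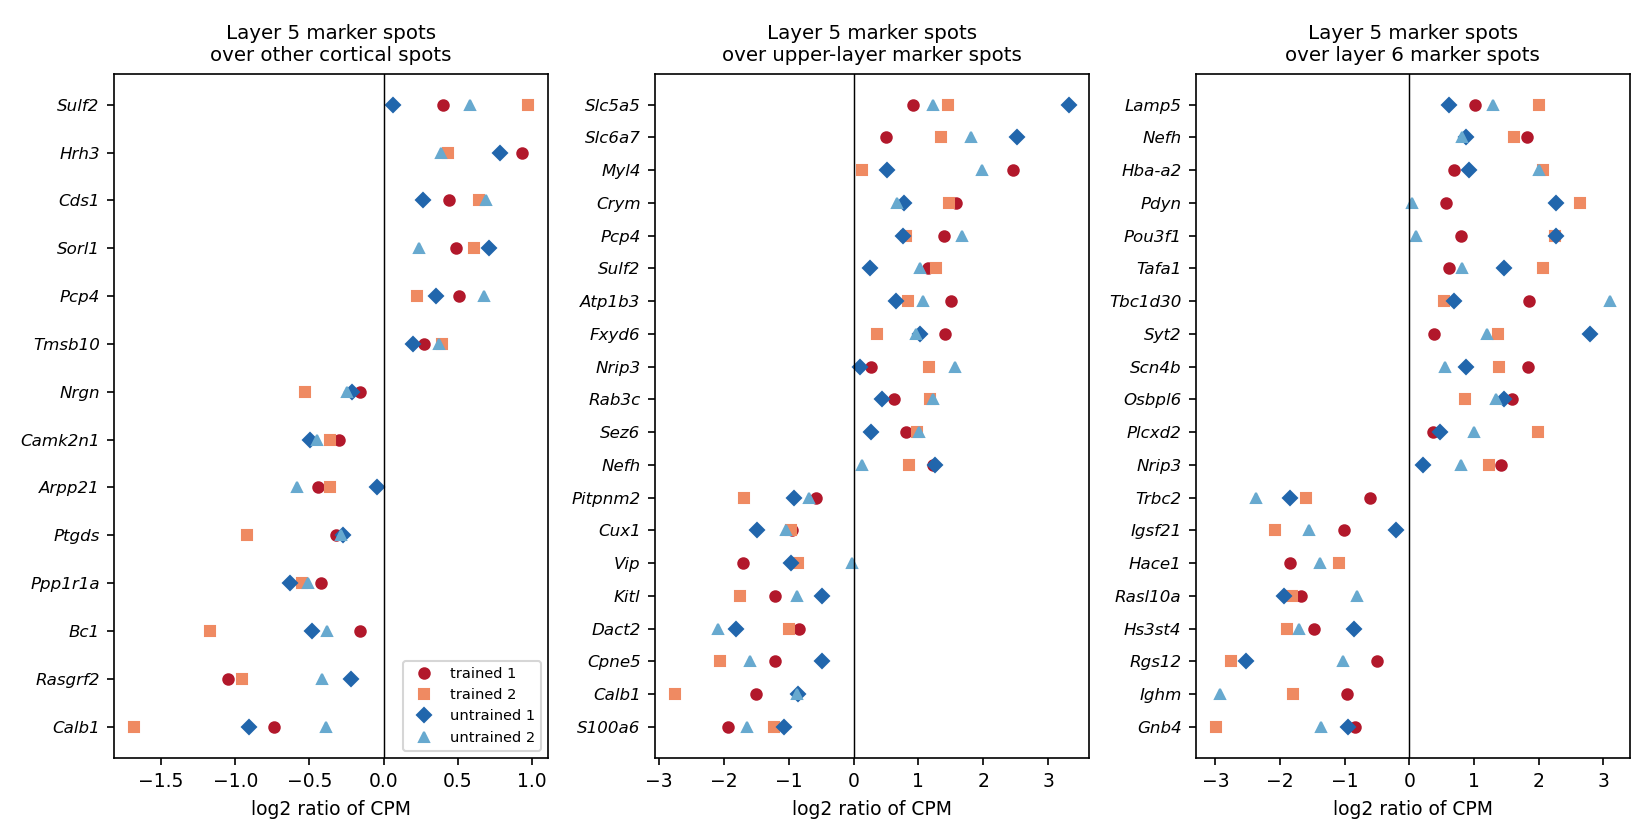
Log2 ratio of CPM in cortical layer 5 marker spots over other cortical spots (left), upper-layer marker spots (middle) and layer 6 marker spots (right), with a symbol for each section, for named genes that passed the test in the same direction in 4 of 4 sections. Pcp4 lies right of 0 in the left and middle panels and Nefh in the middle and right panels, while Calb1 lies left of 0 in the left and middle panels. Ratios of 0 (Hace1 and Ighm in untrained 1) are not drawn.

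Activity-regulated genes were followed because Arc drives the reporter. Over all surroundings 4 of 16 were higher and none lower in layer 5 marker spots, where 1.35% of all genes tested were higher. Arc, a synaptic plasticity gene, was at 180, 225, 58.9 and 186 against 136, 127.8, 50.7 and 132 CPM (log2 difference 0.54 ± 0.10, edgeR adjusted p = 3.308e-05), and Egr1 (0.34), Nr4a1 (0.52) and Ier2 (0.73), which encode early-response regulators, were also called. Against other spots with 1 or more Slc17a7 UMIs none of these 4 was called. Within cortex 6 of 16 were positive with a median of −0.04 and none passed the test: Arc had a log2 difference of −0.12, Egr1 of −0.30 and Nr4a1 of −0.04, so the sign of these 3 turned when cortex was compared with cortex, whereas Ier2 had a log2 difference of 0.33 (edgeR adjusted p = 0.821).

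The effect of training on the layer 5 marker spots was tested between the 2 trained and 2 untrained sections. Of 8771 genes, 5 were higher (0.057%) and 6 lower (0.0684%) in trained sections (edgeR, adjusted p under 0.05). In 36.3% of all genes tested the trained and untrained values did not overlap, so the lack of overlap shared by all 11 is common. DESeq2 called 0 genes, with 87 at an unadjusted p under 0.05, and limma voom called 6. Leaving out trained 1, trained 2, untrained 1 or untrained 2 ended 4, 7, 7 and 4 of the 11 calls, and none of the 11 kept its call in all 4 of these fits.

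Of the higher genes, Avp and Oxt encode the hypothalamic hormones vasopressin and oxytocin. Avp was at 237, 57.1, 37.9 and 5.57 CPM on 168, 41, 9 and 3 UMIs (log2 difference 3.14 ± 0.52, edgeR adjusted p = 0.00149). Trained 1 stood far above the rest, with 120 of its 168 UMIs in hypothalamus-led spots and 65 in a single spot. Without trained 1 the log2 difference was 1.72. In trained 2, 0 of the 41 Avp UMIs lay in hypothalamus-led spots and 26 in cortical spots. Oxt was at 66.2 and 22.3 CPM in the trained sections on 47 and 16 UMIs and had 0 UMIs in both untrained sections, so that trained was at least 11.4-fold higher than the limit of 3 counts over the untrained group (edgeR adjusted p = 0.00149). Trained 1 carried most of these UMIs, and without it the bound was 5.76-fold. Of the 47 and 16 Oxt UMIs, 8 and 0 lay in hypothalamus-led spots and 17 and 14 in cortical spots.

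Outside the chosen spots both trained sections were also above both untrained ones, where Oxt was at 278, 56.5, 3.80 and 0.839 CPM and Avp at 206, 214, 108 and 9.06 CPM. Bcas1, a gene of oligodendrocytes, was at 77.5, 145, 33.7 and 39.0 CPM (log2 difference 1.51, edgeR adjusted p = 0.0305). The gene model AC149090.1 was at 351, 256, 156 and 134 CPM (log2 difference 1.04, edgeR adjusted p = 0.0363). The other spots had Bcas1 at 84.7, 176, 61.5 and 81.5 CPM and AC149090.1 at 327, 235, 146 and 137 CPM. Trbc2, a T-cell receptor constant region, was at 33.8, 47.3, 4.21 and 7.42 CPM (log2 difference 2.56, edgeR adjusted p = 0.0422), with 21 of 24, 32 of 34, 1 of 1 and 4 of 4 UMIs in cortical spots. The other spots had Trbc2 at 13.4, 28.7, 15.2 and 16.3 CPM, with trained 1 below both untrained sections.

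Genes lower after training included the calcium sensors Hpcal1 and Hpcal4. Hpcal1 was at 63.4, 47.3, 160 and 147 CPM (log2 difference −1.503 ± 0.26, edgeR adjusted p = 0.0023), Hpcal4 at 206, 134, 551 and 299 CPM (−1.32, edgeR adjusted p = 0.00398), and Nptxr, the neuronal pentraxin receptor, at 352, 214, 787 and 516 CPM (−1.22, edgeR adjusted p = 0.00691). The untrained sections were high for all 3, with untrained 1 the highest. In the other spots these genes ran in the same order between conditions, with Hpcal1 at 85.0, 68.5, 112 and 125 CPM and Nptxr at 327, 220, 468 and 476 CPM.

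The transcript 2900052N01Rik was at 21.1, 36.2, 96.8 and 76.1 CPM (−1.59, edgeR adjusted p = 0.0209), AY036118 at 11.3, 6.96, 79.9 and 31.5 CPM (−2.44, edgeR adjusted p = 0.0209), and Hba-a1, an alpha-globin, at 70.4, 57.1, 109 and 161 CPM (−1.20, edgeR adjusted p = 0.0363). The other spots had 2900052N01Rik at 37.4, 34.25, 109 and 104.5 CPM and AY036118 at 11.2, 7.96, 69.4 and 29.35 CPM, in the same order between conditions. In the cortical layer 5 marker spots alone 2 of 6255 genes (0.032%) were called. Hpcal1 was at 54.3, 28.9, 126 and 157 CPM (log2 difference −1.95, edgeR adjusted p = 0.0312), and the beta-globin Hbb-bs at 180, 151, 442 and 433 CPM (−1.47, edgeR adjusted p = 0.0185). Neither overlapped between conditions, as in 36.1% of the genes tested there.

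**Figure D5:**
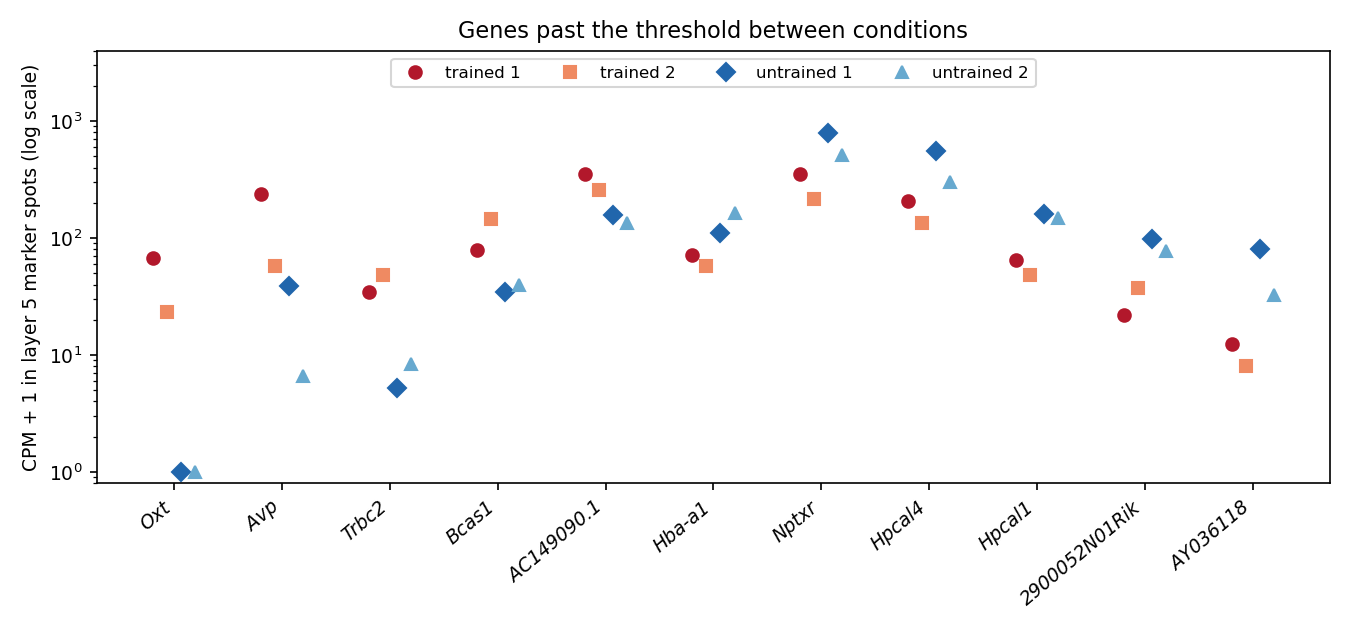
CPM + 1 on a log scale in the layer 5 marker spots of each section for the 11 genes that passed the test between conditions. The trained sections (circle and square) lie above the untrained ones for Oxt, Avp, Trbc2, Bcas1 and AC149090.1 and below them for the other 6, and Avp in trained 2 (57.1 CPM) lies close to untrained 1 (37.9 CPM).

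No gene of the layer lists and no activity-regulated gene was called between conditions. Arc was at 180, 225, 58.9 and 186 CPM (log2 difference 0.52 ± 0.26, edgeR adjusted p = 0.808), with untrained 1 low and untrained 2 between the trained sections. Fos had a log2 difference of 0.73 (edgeR adjusted p = 0.818), Crym of −0.94 (0.313) and Lypd1, a prototoxin of near-projecting neurons, of −0.95 (0.212). Of 15 activity-regulated genes tested 8 were positive, with a median of 0.13 against 0.01 over all genes. Gt(ROSA)26Sor had a log2 difference of −0.16 (edgeR adjusted p = 0.978).

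Several lists lay to one side of 0. Nuclear oxidative phosphorylation genes had a median log2 difference of 0.29 with 70 of 76 positive, mitochondrially encoded genes of −0.44 with 0 of 13 positive, synaptic vesicle genes of −0.22 with 7 of 26 positive, and oligodendrocyte genes of 0.35 with 8 of 8 positive, and no gene of these lists was called. The summed nuclear oxidative phosphorylation genes were at 41253, 51546, 32351 and 39430 CPM, with both trained sections above both untrained ones. The same held in the other spots, at 40716, 47950, 33396 and 37758 CPM. Single sections carried the other 3 lists. The summed mitochondrially encoded genes were at 107215, 60533, 102494 and 108019 CPM, low in trained 2 alone, as in the other spots with 123954, 68946, 121487 and 116186 CPM. The oligodendrocyte sum was high in trained 2 alone, at 3032, 5467, 2832 and 3694 CPM, and the synaptic vesicle sum was highest in untrained 1, at 14625, 15590, 16535 and 14552 CPM. Of the blood genes 0 of 4 were positive (median −0.90), and Hba-a1 was the one called. Striatal genes were positive in 6 of 6 cases (median 0.35), cortex genes in 6 of 6 (0.27) and cytoplasmic ribosome genes in 61 of 76 (0.13), with none called. Bc1 was at 19990, 10930, 35720 and 29190 CPM (log2 difference −1.11, edgeR adjusted p = 0.313). Section depth (untrained 1 the shallowest), the share of members in cortex and globin levels differed between sections along with these values, and their part was not tested.

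Finally, the training difference in layer 5 marker spots was tested against that in the other spots of the same sections. Of 12025 genes 0 were higher and 2 were lower (0.0166%), Pmch and Hba-a1. Pmch, the precursor of melanin-concentrating hormone, was at 84.5, 497, 1855 and 176 CPM in layer 5 marker spots and at 58.3, 1391, 675 and 557 CPM in the other spots (difference of log2 differences −1.20 ± 0.16, edgeR adjusted p = 2.522e-10). The high value was that of untrained 1, where 352 of 441 UMIs lay in hypothalamus-led spots and 191 in a single spot. Without untrained 1 the value was 0.61, and without trained 2 it was 0.38. Hba-a1 was at 200.3, 101, 163 and 137 CPM in the other spots against the 70.4, 57.1, 109 and 161 CPM given above (−1.18 ± 0.23, edgeR adjusted p = 0.00239). Without trained 1 it was −0.78 (edgeR adjusted p = 0.802) and without untrained 2 it was −0.59 (edgeR adjusted p = 0.929). DESeq2 called neither gene and gave −0.37 for Pmch and −1.07 for Hba-a1.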

How the data were processed

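Spot-level UMI counts were deposited by the authors as one unnormalized matrix per section. Per the file headers they were made with Space Ranger 1.2.2. Marker positions were read from the GRCm38 annotation (GENCODE vM21). The sections came from separate mice. Members and gene lists were chosen with earlier results of these data known. The top 5% was taken among spots that met the minimums, up to 5% of all spots with 500 or more UMIs.

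Counts were summed over the spots of a class in each section and tested with edgeR 4.0.16 in R 4.3.3 (TMM, quasi-likelihood, Benjamini-Hochberg adjustment, threshold 0.05), with section as a block between classes and 2 against 2 sums between conditions. The script was tested on simulated data. Named were the marker and layer genes, activity-regulated genes, Bc1, Ttr, Gm42418 and Gt(ROSA)26Sor, up to 12 higher and 8 lower called genes per class comparison with the same sign in 4 sections and a mean of 50 CPM or more in the higher class, and the called genes with the smallest p between conditions. Other genes of the fixed lists and called genes outside the rule were named after their values were seen.

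Alternatives were DESeq2 1.42.0, no filter, the top 2.5% and 10%, subsets of members, thinned sums, abundant transcripts left out before scaling, a replicate block and each section left out. Cortical neighborhoods, other spots with Slc17a7, the top 5% taken before the minimums and limma 3.58.1 voom were chosen after seeing the data. A few genes are not reported here.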

Additional observations from a re-analysis of the deposited data

Results flagged for a closer look

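The training difference in layer 5 marker spots differed from that in the other spots of the same sections for Pmch and Hba-a1, by the test of the difference itself (edgeR). For Pmch the difference of log2 differences was −1.20, and the layer 5 marker spots stood at 1.45, 0.357, 2.75 and 0.316 times the other spots in trained 1, trained 2, untrained 1 and untrained 2. For Hba-a1 it was −1.18, with ratios of 0.352, 0.564, 0.672 and 1.18. DESeq2 called neither and gave −0.37 for Pmch. The Pmch ratios spread widely within each condition, and its sign turned without trained 2 (0.38) or untrained 1 (0.61). The Hba-a1 call was lost without trained 1 (−0.78) or untrained 2 (−0.59).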

How the results depend on the processing

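Against all other spots 345 genes were called, with 108 under DESeq2, 165 for the top 2.5%, 576 for members led by cortex or layer lists, 47 with the top 5% taken before the minimums, 23 in cortical neighborhoods, 97 against other spots with Slc17a7, and 169 to 341 with a section left out (204 without trained 1, 169 without trained 2). Against upper-layer spots 122 became 15 (DESeq2), 60 (led members), 61 (members with an adjacent member), 37 (5% before the minimums), 74 (cortical) and 27 to 183 (37 without trained 1, 27 without untrained 2). Against layer 6 spots 71 became 3 (DESeq2), 119 (top 10%), 119 (led members), 28 (5% before the minimums) and 29 to 85 (29 without trained 2, 32 without untrained 2).

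Between conditions 11 became 0 (DESeq2), 30 (no filter), 3 (top 2.5%), 2 (top 10%), 0 (led members, 341 at an unadjusted p under 0.05), 1 (adjacent members), 1 (5% before the minimums), 2 (cortical), 0 (thinned sums, 328 at an unadjusted p under 0.05), 6 (limma voom) and 8 to 80 (80 without trained 1, 8 without trained 2 or untrained 1, 34 without untrained 2). With the replicate block 32 genes were called, all 11 among them. The deviations of same-numbered sections had a correlation of 0.0394 over 8776 genes. A single correlation from 2 sections per condition cannot show whether same-numbered sections shared a batch, and the labels name none. For the difference of training effects 2 became 0 (DESeq2, 49 at an unadjusted p under 0.05), 1 (top 2.5%), 0 (top 10%, 568 at an unadjusted p under 0.05) and 1 to 6 (6 without trained 1, 4 without untrained 1, 1 without untrained 2).

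Signs turned against all other spots in cortical neighborhoods for Oxt (0.30), Hcrt (0.062), Prkcd (0.21), Arc (−0.12), Nr4a1 (−0.037) and Egr1 (−0.30), and with led members for Nwd2 (−0.13). Against upper-layer spots they turned for Nwd2 (−0.28) and Pmch (−0.22) with led members and Pmch (−0.52) with adjacent members, and against layer 6 spots for Rora (−0.16) with the 5% before the minimums. The Pmch difference of training effects ranged from −2.468 to 0.61 with a section left out (0.38 without trained 2, 0.61 without untrained 1). The cause was not tested. Over the named genes and all alternatives, 252, 154, 184, 67 and 71 values kept their direction and side of the threshold (against all other, upper-layer and layer 6 spots, between conditions, and for the difference of training effects), and 81, 98, 79, 93 and 11 kept the direction without the call. DESeq2 gave no adjusted p for 26 values, which are not counted. With a section left out, the held-out log2 differences ranged from 1.27 to 1.73 for Fezf2, 0.78 to 1.005 for Etv1, 0.63 to 0.91 for Parm1 (0.63 without trained 2) and −0.19 to 0.45 for Deptor (−0.19 without trained 2). Where a condition then held 1 section, it was assumed to vary like the other. The 54 members of untrained 1 and 2 UMIs as the usual marker evidence limit all of these values.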
